A study of Mus musculus with 2 samples.

Results

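Chemokines and epithelial cytokines are the secreted signals with which cells of the skin draw in, hold and feed immune cells. The genes described here are those of the deposited expression table whose symbol names a CC, CXC, CX3C or XC chemokine, together with Csf1, Csf2, Csf3, Il1a, Il1b, Il6, Il7, Il15, Il18, Il33, Il34, Tslp, Tnf and Lif, each gene ID taken once. They make up 54 of the 42392 gene IDs in the table, of which 40 are chemokine and 14 cytokine IDs. RefSeq annotates 52 of the 54 as protein-coding, and Ccl19-ps3 and Cxcl11 as pseudogenes.

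The values come from RNA-seq of hair follicle stem cells, which sit in the bulge of the follicle and rebuild its lower part for every new hair. The library studied is labelled anagen II-III, the early growth phase, and was made from the skin of female K15-CrePGR; Shh+/- mice, which carry a Cre fused to the progesterone receptor under a keratin 15 promoter and a single functional Shh allele. These animals had RU486, the ligand of that Cre, over 8 days, and the title calls the sample a control. The series also holds a telogen (resting phase) sample with the same genotype and treatment, which was not analysed here, so no stage comparison was made. The age of the mice is not among the details used here, nor is the number of animals behind the sample. There was 1 library, so no value below carries an error or a test, and the read depth behind the values is unknown. All levels are in TPM, a measure of relative transcript abundance that divides by gene length, so that levels of different genes may be set side by side within the library.

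Chemokines are small proteins named for the spacing of their conserved N-terminal cysteines. They bind G protein-coupled receptors on leukocytes, and atypical receptors that take them up without signalling through G proteins. In mouse skin, keratinocytes of the upper follicle, the isthmus and the bulge have been described as sources of CCL20, CCL2 and CCL8, through which the follicle controls the entry of Langerhans cell precursors. Keratinocytes also make IL-34 for Langerhans cells, and follicle cells make IL-7 and IL-15 for resident T cells.

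The chemokine and cytokine genes spanned a very wide range of levels, and a few chemokines held nearly all of the signal. Of 54 IDs, 48 had a value above 0 and 6 were listed at 0. At or above 1 TPM stood 24 of 54 (44.4%), against 56.0% of the 20774 nuclear protein-coding genes and 34.1% of all gene IDs. At or above 10 TPM stood 7 of 54 (13.0%), against 31.9% of protein-coding genes. The median over all 54 was 0.627 TPM, against 2.44 TPM over protein-coding genes. The 54 IDs summed to 1115 TPM, and Cxcl14 alone held 55.2% of that sum. The 3 highest, Cxcl14, Ccl27b and Cxcl12, held 86.4%. The 40 chemokine IDs summed to 1093 TPM and the 14 cytokine IDs to 22.5 TPM. In a bulk sample such as this, a transcript made by few cells and one made weakly by many cannot be told apart.

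**Figure D1:**
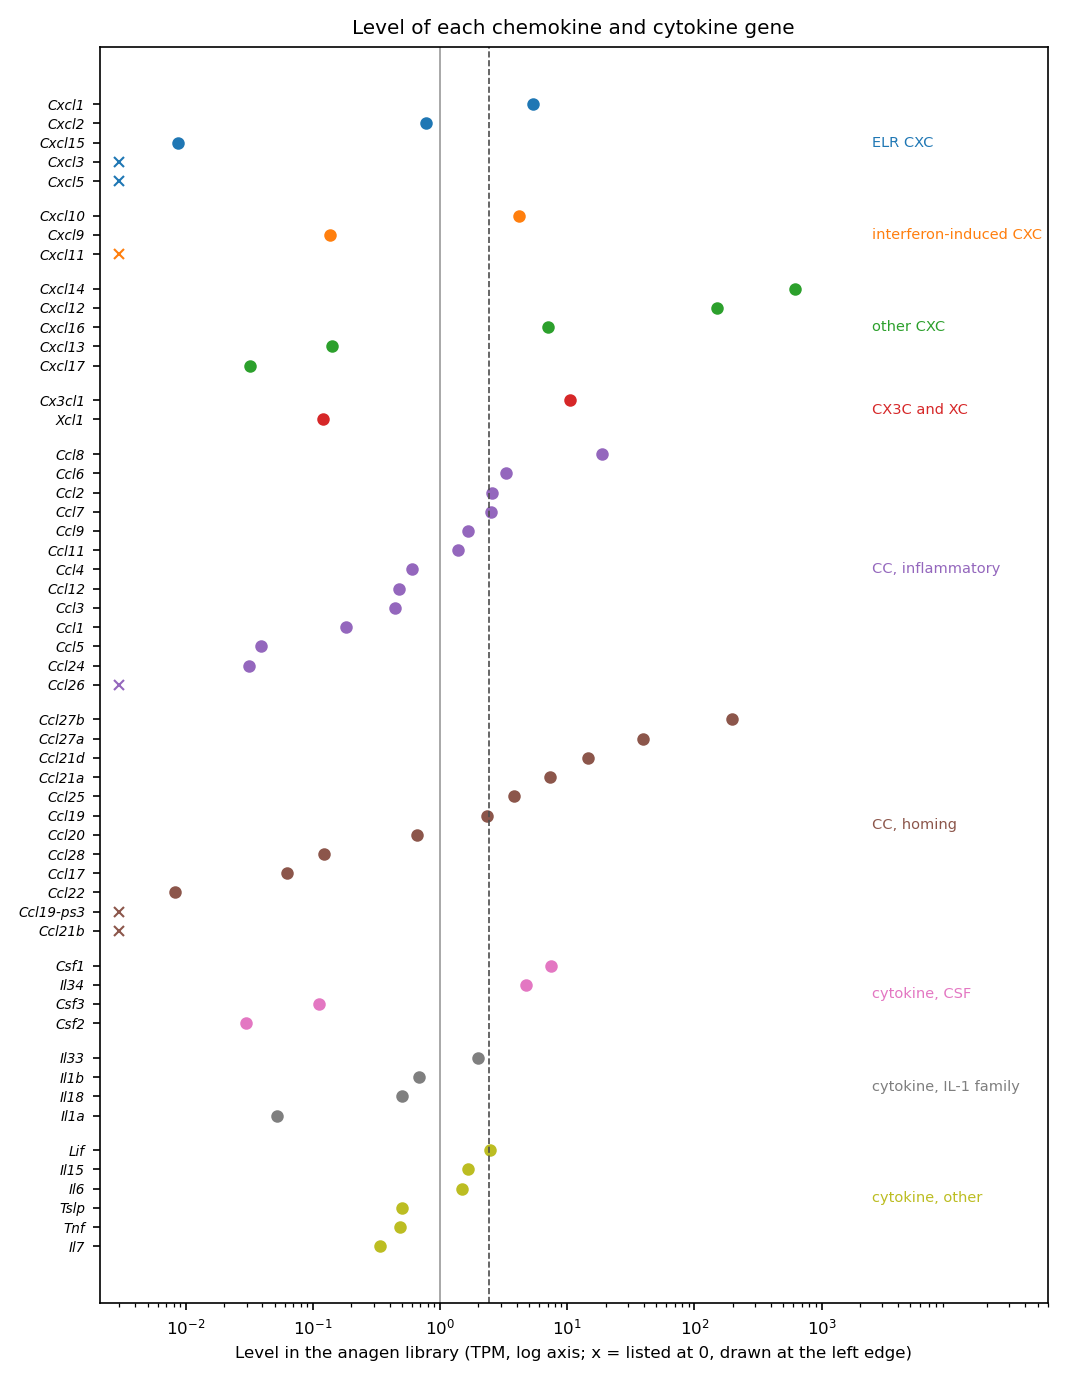
Level of each of the 54 chemokine and cytokine gene IDs in the anagen library in TPM on a log axis, grouped and coloured by role, with a cross at the left edge for an ID listed at 0. The grey line marks 1 TPM and the dashed line the protein-coding median of 2.44 TPM; Cxcl14 at 615 TPM, Ccl27b at 197 TPM and Cxcl12 at 151 TPM stand apart on the right.

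The library carried bulge transcripts, and transcripts of other skin cells as well. The 10 genes of the bulge list had a median of 116 TPM and ran from Nfatc1 at 16.1 TPM to Krt5 at 3833 TPM. They include Cd34 and Itga6, whose proteins were selected in the sort. Among fibroblast and dermal papilla markers, 8 of 8 were at 1 TPM or more and the list summed to 908 TPM, of which the collagen genes Col3a1, Col1a1 and Col1a2 gave most, while Pdgfra, whose protein was excluded in the sort, stood at 1.44 TPM. Pan leukocyte markers summed to 5.80 TPM over 6 genes, with Ptprc (CD45) at 0.264 TPM. Macrophage and monocyte markers summed to 25.9 TPM over 10 genes, 7 of them at 1 TPM or more, with Lyz2 at 10.02 TPM, C1qa at 5.11 TPM and Adgre1 at 0.326 TPM. Endothelial markers summed to 21.9 TPM over 7 genes, 5 of them at 1 TPM or more. Of 8 T cell markers measured, 1 reached 1 TPM, and that was Thy1 at 61.1 TPM. Trac and Cd8a were listed at 0. Of 9 Langerhans and dendritic cell markers, 4 reached 1 TPM, led by Mfge8 at 92.4 TPM and Cd74 at 13.2 TPM, and the defining marker Cd207 stood at 0.102 TPM. Of 9 mast cell and neutrophil markers, 6 reached 1 TPM, with Mcpt4 highest at 6.996 TPM. Of other epithelial cells, suprabasal epidermal markers summed to 1314 TPM, with 6 of 7 at 1 TPM or more and Flg at 0.00794 TPM, and upper follicle and sebaceous markers to 618.5 TPM, also with 6 of 7. Melanocyte markers summed to 44.9 TPM over 6 genes and erythroid markers to 212 TPM over 5. Beside these counts, 56.0% of protein-coding genes reached 1 TPM. The part of these cells in the levels below was not tested.

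**Figure D2:**
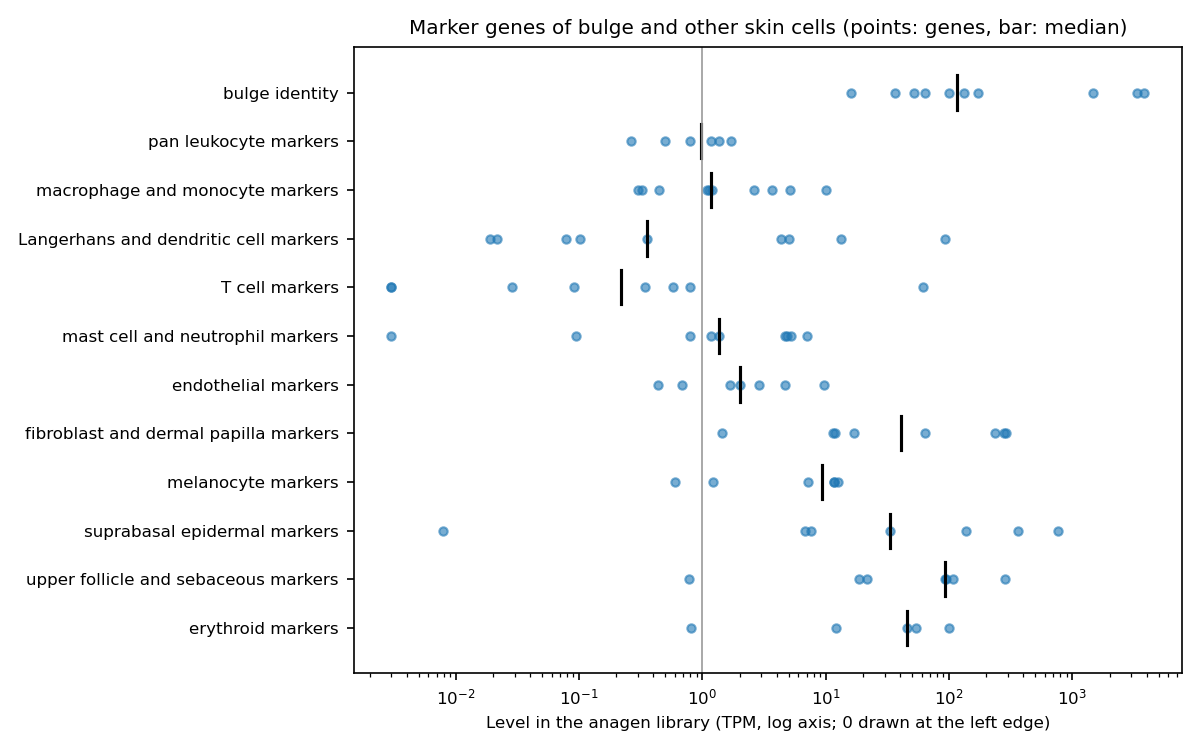
Levels in the anagen library, in TPM on a log axis, of the genes in a bulge list and in 11 marker lists of other skin cells; each point is a gene, each black bar the median of its list, and the grey line marks 1 TPM. The bulge list has a median of 116 TPM, the fibroblast list one of 40.5 TPM and the pan leukocyte list one of 0.984 TPM.

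The CXC chemokines outside the neutrophil and interferon groups held 69.4% of the summed TPM of the 54 IDs, nearly all of it in Cxcl14 and Cxcl12. Cxcl14, a chemokine of resting epithelia, stood at 615 TPM (ENSMUSG00000021508, chromosome 13, 56288643 to 56296811), higher than 99.5% of protein-coding genes. Cxcl12, the stromal factor that binds CXCR4 and the scavenging receptor ACKR3, stood at 151 TPM (ENSMUSG00000061353, chromosome 6, 117168535 to 117181368), higher than 97.9% of protein-coding genes. Cxcl14 was thus 4.06-fold above Cxcl12 in TPM. Fibroblasts are a known source of Cxcl12. Of the 8 fibroblast and dermal papilla markers, Col3a1, Col1a1 and Col1a2 stood above Cxcl12, at 287, 278 and 237 TPM, and the others below it, from Dcn at 63.9 TPM to Pdgfra at 1.44 TPM. The part of fibroblast RNA in the Cxcl12 level was not tested. Cxcl16, a membrane-anchored ligand of CXCR6 that proteases shed, stood at 7.11 TPM. Cxcl13, which draws B cells into follicles of lymphoid tissue, stood at 0.141 TPM, and the mucosal chemokine gene Cxcl17 at 0.0319 TPM.

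The promoter windows of Cxcl14 and Cxcl12 are shown because these are the 2 highest of the 54 IDs that have no near-identical copy, and that of Cx3cl1 because it is the only member of its chromosomal cluster above 0.1 TPM. Each runs from 250 bases before to 50 bases after an annotated transcript start, 5′ to 3′ on the gene's strand, from RefSeq on GRCm38.p6, and capitals mark CpG dinucleotides. The Cxcl14 window (chr13:56296502-56296801, minus strand) holds 22 CpG, the Cxcl12 window (chr6:117168285-117168584, plus strand) 20 CpG, and the Cx3cl1 window (chr8:94771930-94772229, plus strand) 19 CpG, against a median of 7 over all 32851 windows in the RefSeq table. High level did not always go with many CpG, since the 4 windows of Ccl27b, at 197 TPM, hold from 3 to 7 CpG, with a mean of 5.
Cxcl14: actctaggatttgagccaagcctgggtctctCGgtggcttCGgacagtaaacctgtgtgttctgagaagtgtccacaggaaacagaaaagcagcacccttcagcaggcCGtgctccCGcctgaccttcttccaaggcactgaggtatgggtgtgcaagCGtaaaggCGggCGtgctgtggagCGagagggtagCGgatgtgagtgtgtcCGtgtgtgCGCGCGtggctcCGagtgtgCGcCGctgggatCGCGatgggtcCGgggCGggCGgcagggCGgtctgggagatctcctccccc
Cxcl12: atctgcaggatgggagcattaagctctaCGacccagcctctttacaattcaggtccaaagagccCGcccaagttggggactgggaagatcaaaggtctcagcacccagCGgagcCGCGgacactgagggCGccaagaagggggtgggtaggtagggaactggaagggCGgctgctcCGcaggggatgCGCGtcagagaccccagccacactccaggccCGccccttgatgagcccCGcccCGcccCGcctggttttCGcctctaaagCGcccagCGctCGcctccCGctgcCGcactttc
Cx3cl1: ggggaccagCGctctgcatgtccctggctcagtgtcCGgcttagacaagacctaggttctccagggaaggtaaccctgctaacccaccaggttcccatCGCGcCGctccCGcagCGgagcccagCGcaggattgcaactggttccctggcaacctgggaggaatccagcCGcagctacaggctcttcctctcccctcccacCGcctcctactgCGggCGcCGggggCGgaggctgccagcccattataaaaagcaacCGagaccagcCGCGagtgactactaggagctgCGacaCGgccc

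Of the ELR CXC chemokines, which carry a Glu-Leu-Arg motif and draw in neutrophils through CXCR2, Cxcl1 was the only gene at 1 TPM or more. Cxcl1 stood at 5.40 TPM (ENSMUSG00000029380, chromosome 5, 90891245 to 90893121), higher than 58.6% of protein-coding genes, and 7.01-fold above its neighbour Cxcl2 at 0.769 TPM. Cxcl15, a chemokine of the lung, stood at 0.00867 TPM, and Cxcl3 and Cxcl5 were listed at 0. The receptor gene Cxcr2 stood at 0.209 TPM. Of the neutrophil markers, S100a8, S100a9 and Ly6g stood at 1.38, 0.787 and 0.0942 TPM, and Retnlg was listed at 0. The windows of Cxcl1, Cxcl2 and Cxcl3 are shown because all 3 hold the same binding element for NF-kB, the transcription factor that drives inflammatory genes, while the levels differ. As these windows were picked for the match, its rarity among all windows is no test of it. Capitals mark the element GGGAATTTCC, searched on both strands, which stands in 29 of all 32851 windows (0.0883%). It starts at position -71 in Cxcl1 (chr5:90890995-90891294), at -97 in Cxcl2 (chr5:90903649-90903948) and at -73 in Cxcl3 (chr5:90785851-90786150), counted from the transcript start on the plus strand of GRCm38.p6.
Cxcl1: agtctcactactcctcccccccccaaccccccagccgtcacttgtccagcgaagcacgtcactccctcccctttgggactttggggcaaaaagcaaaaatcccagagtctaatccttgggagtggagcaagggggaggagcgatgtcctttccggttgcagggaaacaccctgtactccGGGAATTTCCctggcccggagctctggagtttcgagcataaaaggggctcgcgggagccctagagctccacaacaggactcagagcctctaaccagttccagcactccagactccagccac
Cxcl2: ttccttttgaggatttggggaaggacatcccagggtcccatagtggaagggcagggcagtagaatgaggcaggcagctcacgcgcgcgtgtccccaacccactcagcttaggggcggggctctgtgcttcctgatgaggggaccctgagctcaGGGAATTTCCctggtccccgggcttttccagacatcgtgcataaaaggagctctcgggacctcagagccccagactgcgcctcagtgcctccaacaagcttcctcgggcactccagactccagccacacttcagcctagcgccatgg
Cxcl3: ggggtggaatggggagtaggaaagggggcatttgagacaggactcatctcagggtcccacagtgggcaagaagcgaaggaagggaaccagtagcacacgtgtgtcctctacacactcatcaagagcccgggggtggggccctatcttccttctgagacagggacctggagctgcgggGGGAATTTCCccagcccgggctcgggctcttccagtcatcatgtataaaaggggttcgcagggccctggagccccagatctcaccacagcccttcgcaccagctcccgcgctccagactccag

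Among the CXC chemokines that interferon induces and that bind CXCR3 on activated T cells, Cxcl10 stood at 4.18 TPM, Cxcl9 at 0.135 TPM, and Cxcl11 was listed at 0. Cxcl10 was thus 31.0-fold above Cxcl9, a fold that is uncertain because the Cxcl9 level is low. The Cxcl10 gene (chromosome 5, 92346638 to 92348889) lies over its whole 2252 bases within the annotated span of Art3, which stood at 4.08 TPM. Whether reads were assigned by strand is not given in the sources used here. The Cxcl10 window matches the NF-kB consensus at positions -159, -104 and -103, the last pair overlapping. It also holds the interferon element GAAANNGAA at position -213. Searched on both strands, that element stood in 7 of 44 windows of the genes described here (15.9%), those of Cxcl9, Cxcl10, Cxcl14, Ccl1, Ccl3, Ccl19 and Csf2, against 8.56% of all windows.

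Cx3cl1, whose product fractalkine is a membrane-anchored chemokine for CX3CR1 on monocytes, macrophages and T cells, stood at 10.4 TPM (ENSMUSG00000031778, chromosome 8, 94772180 to 94782427). That was higher than 68.9% of protein-coding genes. The nearest chemokine genes on either side of it, Ccl17 and Ccl22, encode ligands of CCR4 on skin-homing T cells, and stood at 0.0619 and 0.00828 TPM. Cx3cl1 was thus 168-fold above Ccl17, whose start lies 37.2 kb away. The low Ccl17 level rests on an unknown number of reads, so the size of this fold is uncertain. Xcl1, a lymphocyte product that binds XCR1 on dendritic cells, stood at 0.119 TPM.

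The inflammatory CC chemokines had a median of 0.596 TPM, against 2.44 TPM over protein-coding genes, and Ccl8 stood above the rest. Ccl8, a ligand of CCR8 in the mouse, stood at 18.9 TPM (ENSMUSG00000009185, chromosome 11, 82115185 to 82116799), higher than 79.1% of protein-coding genes. Ccl2 and Ccl7, ligands of CCR2 on monocytes, stood at 2.55 and 2.51 TPM, and the eotaxin gene Ccl11 at 1.37 TPM. Their neighbours Ccl12, another CCR2 ligand of the mouse, and Ccl1 stood at 0.473 and 0.180 TPM. Ccl8 was thus 7.40-fold above Ccl2 and 40.0-fold above Ccl12, the next gene along. Macrophages are a known source of Ccl8. The 10 macrophage and monocyte markers ranged from 0.303 TPM for Ms4a7 to 10.02 TPM for Lyz2, with C1qa at 5.11 TPM, C1qb at 3.69 TPM and a median of 1.165 TPM. The part of macrophage RNA in the Ccl8 level was not tested.

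In the second CC cluster of chromosome 11, Ccl6 and Ccl9, ligands of CCR1, stood at 3.29 and 1.66 TPM, while Ccl4, Ccl3 and Ccl5, which leukocytes make, stood at 0.596, 0.442 and 0.0389 TPM. Ccl3 and Ccl4 overlap in the annotation by 755 bases. The remaining eotaxin genes were Ccl24 at 0.0313 TPM and Ccl26, listed at 0. In all, 6 of the 13 inflammatory CC chemokine genes reached 1 TPM, against 56.0% of protein-coding genes.

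The windows of Ccl8 and of its neighbour Ccl12 are shown because the pair shares a TATA box at nearly the same place and differs 40.0-fold in level. Capitals mark TATAAA on the gene's strand, which starts at position -32 in Ccl8 (chr11:82114935-82115234) and at -31 in Ccl12 (chr11:82101595-82101894), both on the plus strand of GRCm38.p6.
Ccl8: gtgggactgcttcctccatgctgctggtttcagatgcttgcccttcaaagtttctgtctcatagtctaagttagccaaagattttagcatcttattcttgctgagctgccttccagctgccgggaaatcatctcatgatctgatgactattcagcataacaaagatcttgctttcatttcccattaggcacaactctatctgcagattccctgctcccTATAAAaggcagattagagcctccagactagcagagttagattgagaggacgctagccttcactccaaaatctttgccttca
Ccl12: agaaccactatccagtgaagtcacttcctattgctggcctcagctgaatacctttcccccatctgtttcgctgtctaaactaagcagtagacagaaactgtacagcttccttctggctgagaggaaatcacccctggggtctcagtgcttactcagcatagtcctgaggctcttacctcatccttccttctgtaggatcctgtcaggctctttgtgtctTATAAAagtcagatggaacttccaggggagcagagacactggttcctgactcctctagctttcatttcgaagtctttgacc

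**Figure D3:**
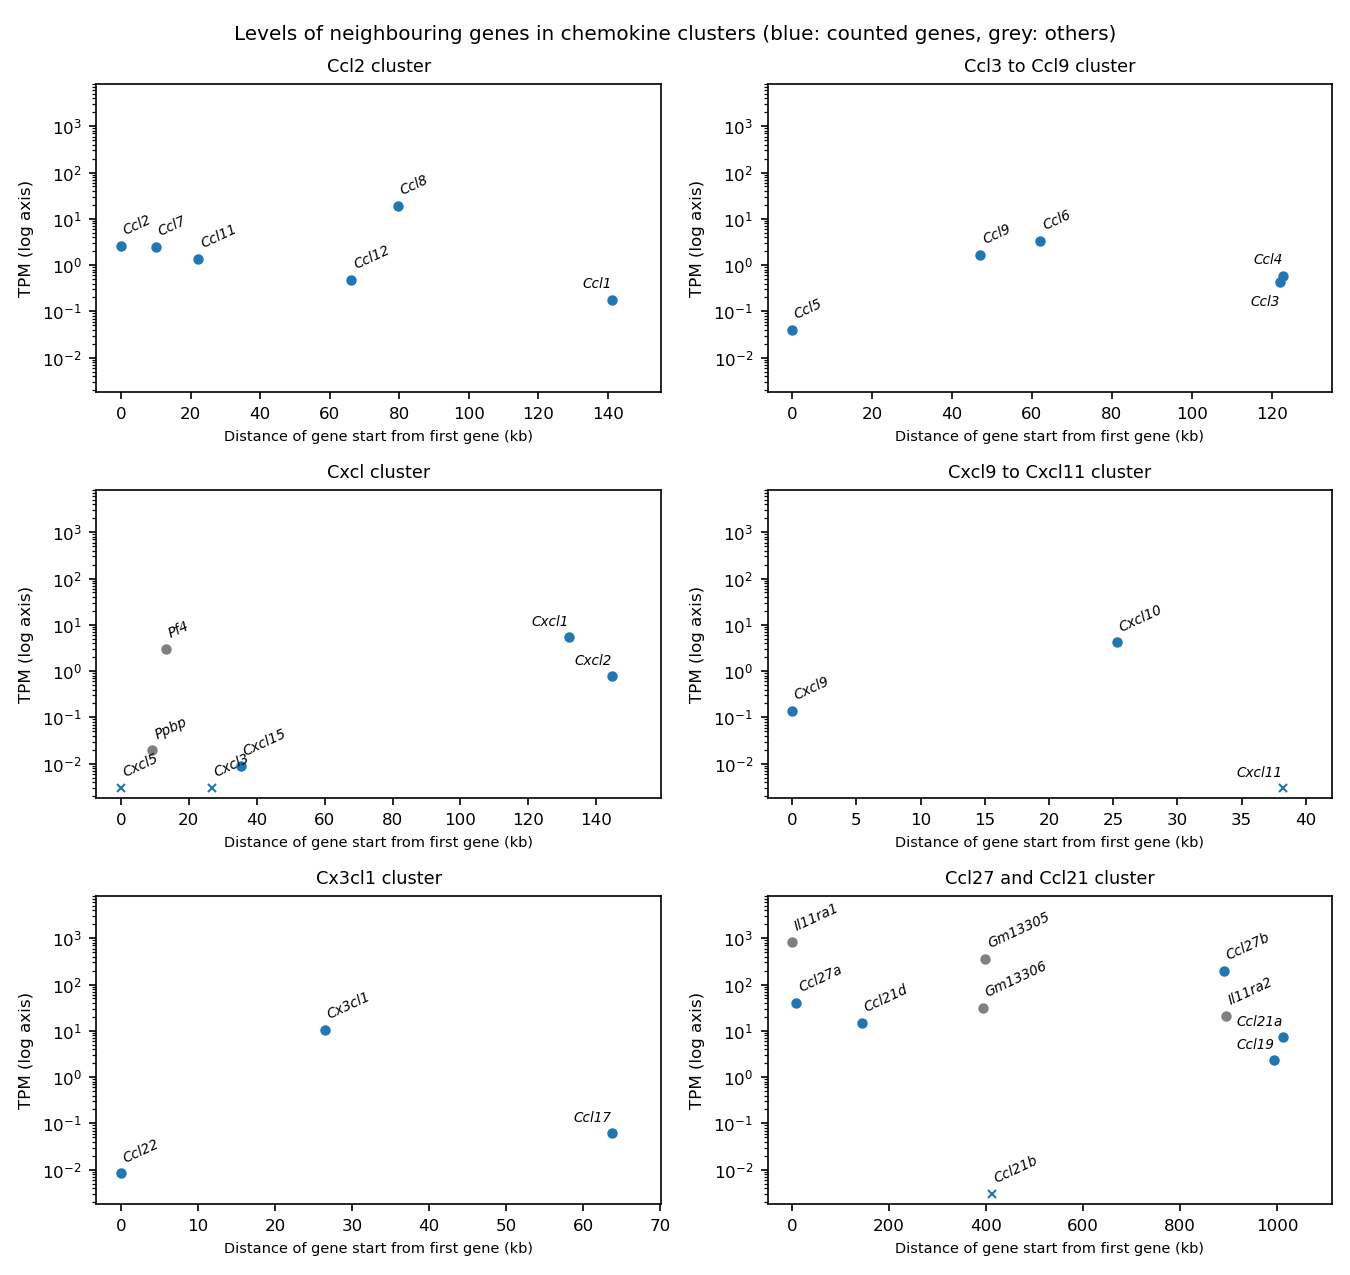
Levels in the anagen library, in TPM on a log axis, of neighbouring genes in 6 chemokine clusters against the distance of each gene's start from that of the first gene in kb; blue points are chemokine IDs counted here, grey points other genes, and crosses IDs listed at 0. Ccl8 at 18.9 TPM, Cxcl1 at 5.40 TPM, Cxcl10 at 4.18 TPM and Cx3cl1 at 10.4 TPM are each the highest in their panels.

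Among CC chemokines of homing and barrier tissues, 6 of 12 IDs reached 1 TPM, against 56.0% of protein-coding genes, and the Ccl27 genes led. CCL27 is the keratinocyte chemokine that draws CCR10-bearing T cells to the skin. Ccl27b stood at 197 TPM (ENSMUSG00000096826, chromosome 4, 42650563 to 42656008) and Ccl27a at 39.6 TPM (ENSMUSG00000073888, chromosome 4, 41769467 to 41774225). The table also places the symbols Ccl27b and Gm13306 on the Ccl27a ID, and Gm13306 stood at 31.6 TPM on an ID of its own. Because the copies are nearly the same in sequence, how their reads were divided is uncertain, and the 3 IDs summed to 268.5 TPM. Each lies beside a gene of another repeated kind. Ccl27a overlaps Il11ra1, an interleukin-11 receptor gene at 835 TPM, by 7 bases, Gm13306 lies next to Gm13305 at 362 TPM, and Ccl27b overlaps Il11ra2 at 20.6 TPM by 734 bases. The order of levels within these pairs was not the same, since Ccl27b was above its neighbour and Ccl27a and Gm13306 were below theirs. Il11ra1, Gm13305 and Il11ra2 are copies as well, and summed to 1217 TPM. How their reads were divided is also uncertain, and so is the order within each pair.

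Ccl21, which guides CCR7-bearing dendritic cells and T cells into lymphatic vessels and lymph nodes, was spread over copies as well. Ccl21d stood at 14.6 TPM, Ccl21a at 7.37 TPM and Ccl21b was listed at 0, for a sum of 21.9 TPM. Ccl19, the other CCR7 ligand, stood at 2.32 TPM. It too is counted among the IDs with near-identical copies, so how its reads were divided is uncertain. Ccl21 is known from lymphatic endothelium and Ccl19 from stromal cells. The 7 endothelial markers ranged from 0.436 TPM for Kdr to 9.60 TPM for Egfl7, with Pecam1 at 2.01 TPM. The part of endothelial or stromal RNA in the Ccl21 and Ccl19 levels was not tested. Ccl25, known from thymus and gut, stood at 3.80 TPM. Ccl20, which draws CCR6-bearing cells and is known from the upper follicle, stood at 0.659 TPM, so that Ccl2 was 3.88-fold and Ccl8 28.7-fold above it. Ccl28, a mucosal ligand of CCR10, stood at 0.121 TPM.

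The cytokines were lower than the leading chemokines, and the ligands of the CSF1 receptor were the highest of them. Csf1, which sustains macrophages, stood at 7.48 TPM (ENSMUSG00000014599, chromosome 3, 107741048 to 107760469). Il34, the keratinocyte ligand of the same receptor, stood at 4.72 TPM (ENSMUSG00000031750, chromosome 8, 110741829 to 110805949). Csf1 was 1.58-fold above Il34, and the receptor gene Csf1r, itself a macrophage marker, stood at 1.12 TPM. The other proteins that bind IL-34 are encoded by Ptprz1 at 0.696 TPM and Sdc1, the syndecan of epithelial cells, at 713 TPM. Csf3 and Csf2, the granulocyte and granulocyte-macrophage factors, stood at 0.112 and 0.0296 TPM.

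Genes of the interleukin-1 family were low, while several of their receptor and processing genes were higher. Il33, an alarmin kept in the nucleus, stood at 1.99 TPM, Il1b at 0.678 TPM, Il18 at 0.504 TPM and Il1a, the alarmin of keratinocytes, at 0.0517 TPM. The receptor gene Il1r1 stood at 27.7 TPM, 40.8-fold above Il1b, and the decoy receptor gene Il1r2 at 14.9 TPM. The antagonist gene Il1rn stood at 4.48 TPM. Of 11 inflammasome and pyroptosis genes, 5 reached 1 TPM, against 56.0% of protein-coding genes. The adaptor gene Pycard stood at 60.9 TPM, Casp1, which cleaves pro-IL-1 beta and pro-IL-18, at 24.9 TPM, Casp8 at 11.4 TPM, Nlrp10 at 9.02 TPM, Gsdmd at 1.42 TPM, and the sensor gene Nlrp3 at 0.00884 TPM. The receptor genes for IL-18 and IL-33, Il18r1 and Il1rl1, stood at 0.169 and 0.0867 TPM.

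Of the remaining 6 cytokine genes, 3 reached 1 TPM, a share near the 56.0% of protein-coding genes. Lif stood at 2.48 TPM and Il6 at 1.48 TPM, and their shared signalling receptor gene Il6st at 15.6 TPM, with Lifr at 2.38 TPM and Il6ra at 2.28 TPM. Il15, which maintains resident T cells, stood at 1.67 TPM with its presenting receptor Il15ra at 4.21 TPM, while Il7 stood at 0.334 TPM. Tslp, the epithelial cytokine of allergic inflammation, stood at 0.498 TPM, and the chain Crlf2 of its receptor at 6.18 TPM, while the partner chain Il7r was at 0.0275 TPM. Tnf stood at 0.486 TPM and its receptor gene Tnfrsf1a at 135 TPM.

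Chemokine receptor genes of leukocytes were low, and most of the atypical receptors that clear chemokines were higher. Of 18 chemokine receptor genes, Cxcr4 at 4.82 TPM was the single one at 1 TPM or more, and the median of the 18 was 0.0895 TPM. Ccr6 and Cxcr1 were listed at 0. Of 4 atypical receptor genes, 3 reached 1 TPM, with Ackr4, which binds CCL19, CCL21 and CCL25, at 26.5 TPM, Ackr3, which binds CXCL12 and CXCL11, at 12.2 TPM, and Ackr1, known from venules, at 1.15 TPM. Ackr4 was 216-fold above Ccr7, the signalling receptor of CCL19 and CCL21, and Ackr3 was 2.54-fold above Cxcr4. Cxcl12 in turn was 31.4-fold above Cxcr4, and Cx3cl1 was 232-fold above Cx3cr1. The levels of Ccr7, at 0.1225 TPM, and Cx3cr1, at 0.0448 TPM, rest on an unknown number of reads, so the folds over them are uncertain. Of the listed cytokine receptor genes, 12 of 22 stood at 1 TPM or more, a share near the 56.0% of protein-coding genes, and their median of 1.70 TPM was below the protein-coding median of 2.44 TPM.

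**Figure D4:**
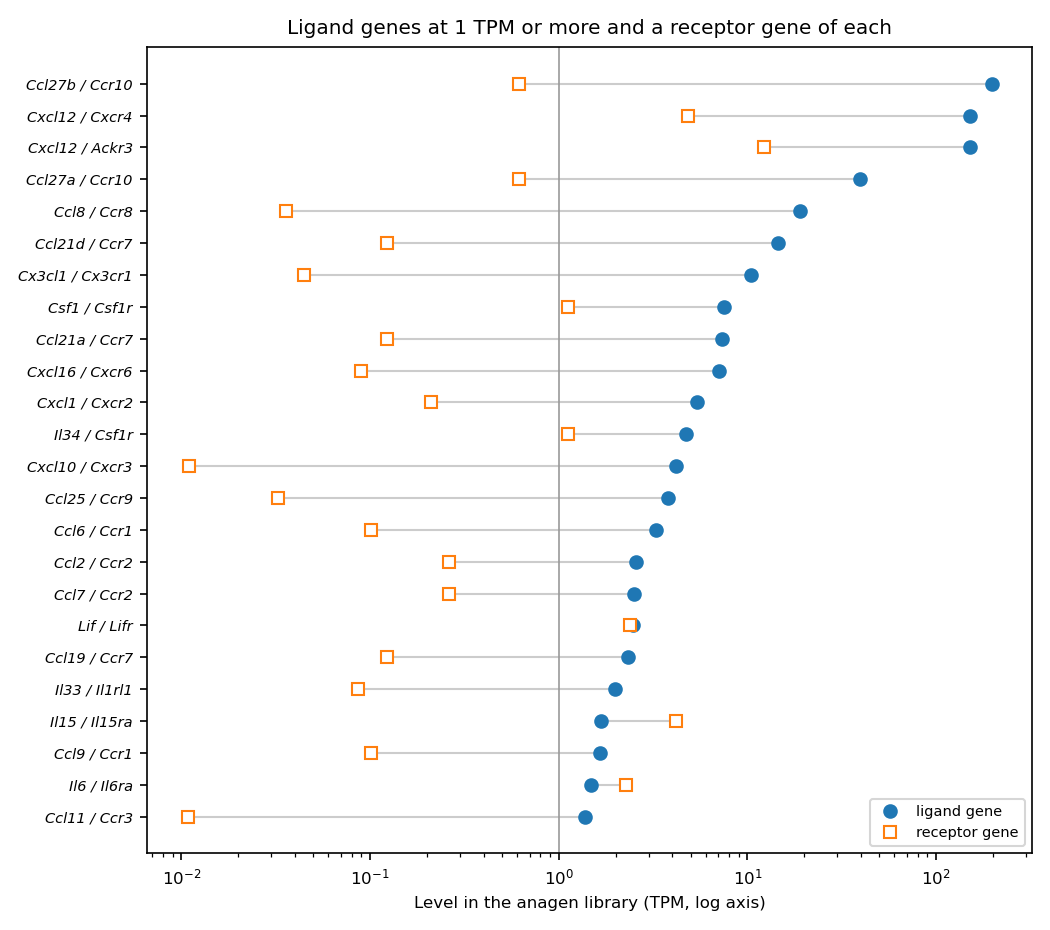
Levels in the anagen library, in TPM on a log axis, of ligand genes at 1 TPM or more (filled circles) and of a receptor gene of each (open squares), with a row for each ligand and receptor pair. Cxcl14 is not drawn, as no receptor gene was listed for it. Leukocyte chemokine receptors lie left of the grey line at 1 TPM, while Cxcr4 at 4.82 TPM, Ackr3 at 12.2 TPM, Csf1r, Lifr, Il15ra and Il6ra lie to its right.

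Most listed genes that release, drive or restrain these signals were at 1 TPM or more. Of nuclear protein-coding genes, 56.0% reached 1 TPM and 31.9% reached 10 TPM. All 4 shedding protease and cofactor genes were above 10 TPM, with Adam10 and Adam17, whose products cut fractalkine, CXCL16 and TNF from the membrane, at 26.2 and 13.9 TPM. Of 14 NF-kB pathway genes, 12 reached 1 TPM and the median was 11.02 TPM, with the inhibitor gene Nfkbia highest at 47.5 TPM, Nfkb1 at 37.0 TPM, Ikbkb at 24.8 TPM and Bcl3 lowest at 0.721 TPM. All 7 antagonist and decoy genes reached 1 TPM, from Socs3, an inhibitor of IL-6 type signalling, at 43.8 TPM to Il18bp at 1.13 TPM. These are RNA levels and measure neither secreted protein nor pathway activity.

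RefSeq promoter windows were found for 37 of the 54 IDs, 4 of them with more than 1 window, which gave 44 windows. The CpG count of the window, averaged where a gene has several, had a median of 8.17 over the 18 genes at 1 TPM or more, against 3 over the 19 genes below 1 TPM and 7 over all windows. The ranges of the 2 sets overlapped, from 2 to 26.5 CpG at 1 TPM or more and from 1 to 45 CpG below it. The 26.5 is the mean over the 2 windows of Ccl25, which hold 52 and 1 CpG, and the next highest count in that set is 22, for Cxcl14. Ccl8, at 18.9 TPM, has 2 CpG in its window, and Ccl21b, listed at 0, has 45. That upper end rests on the Ccl21b window alone, as the next highest count below 1 TPM is 11, for Cxcl2 and Tnf. The copies Ccl21a and Ccl21d have 5 CpG each, and Ccl21b has a far longer annotated span than either. The NF-kB consensus, searched on both strands, matched 11 of 44 windows (25%), against 8.46% of all windows, and these were windows of Cxcl1, Cxcl2, Cxcl3, Cxcl10, Ccl1, Ccl9, Ccl20, Ccl27a, Csf1, Il6 and Lif. TATAAA on the gene's strand, starting between positions -40 and -20, stood in 8 of 44 windows (18.2%), against 1.99% of all windows. Of these 8 genes, Ccl8 at 18.9 TPM and Il33 at 1.99 TPM were above 1 TPM, and Il1b, Tnf, Ccl12, Il1a, Cxcl15 and Cxcl3 were below it. The AP-1 element TGANTCA stood in 10 of 44 windows (22.7%), against 7.81% of all windows. The element TTCNNNGAA, bound by STAT factors, stood in 2 of 44 (4.55%), those of Cxcl14 and Ccl17, against 8.30%. Related genes share sequence, so the windows are not independent, and a match is a description of letters, not a site in use.

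**Figure D5:**
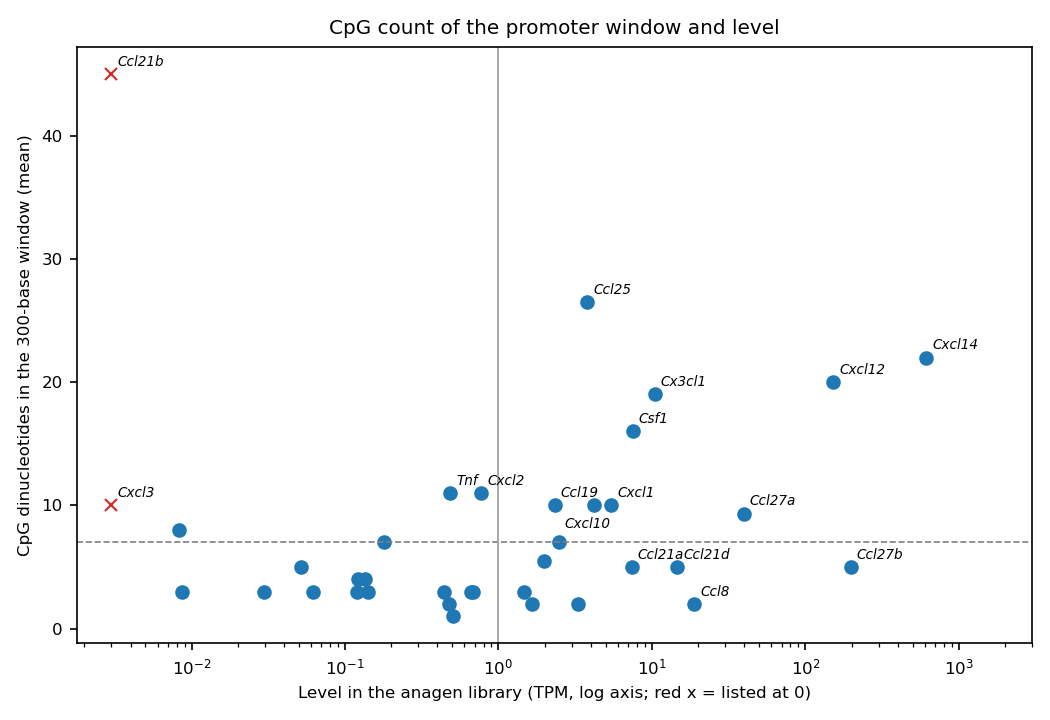
CpG dinucleotides in the 300-base promoter window (mean over windows where a gene has several) against the level in the anagen library in TPM on a log axis for the 37 genes with a window; red crosses are genes listed at 0, the dashed line is the median of 7 CpG over all windows and the grey line marks 1 TPM. Cxcl14, Cxcl12, Cx3cl1 and Csf1 have 22, 20, 19 and 16 CpG, while Ccl8 at 18.9 TPM has 2.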

How the data were processed

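Libraries of mRNA came from cells that a flow sorter selected for high integrin alpha 6 and for CD34, after exclusion of SCA1 and of CD140a, CD117, CD31 and CD45, per the labels' protocols. The authors deposited TPM values, per the file headers. Bowtie2 2.2.9, RSEM 1.2.30 and the mm10 build were used, per the submitters' processing notes. Annotation, filters and strand setting were not given in the sources used here. As TPM keeps no read depth, values have neither intervals nor floors, and abundant features lower every other value.

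The table has 42661 rows for 42392 gene IDs and 12 columns of per-sample values. The anagen sample is the only title numbered 1 and was tied by that number to the column of the same number. The other 11 columns were not used. Each ID was counted once. Where an ID had several symbols, the one in a table of gene names was kept. Biotypes and positions came from RefSeq (GRCm38.p6) by symbol for 32663 IDs. A named gene that is no member took its highest ID.

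Members and gene lists were chosen with earlier results of these data known. Named are all members at 1 TPM or more, others by role, and leading or lowest genes of each list. Some were added after their values were seen: the Il11ra genes, Gm13305 and Gm13306, the promoter windows and the motifs. The motif search was tested on simulated sequences. Python 3.11.15, pandas 2.3.3, numpy 2.4.6 and matplotlib 3.10.9 were used.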

Additional observations from a re-analysis of the deposited data

How the results depend on the processing

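The number of IDs at 1 TPM or more, 24, was 29 at a threshold of 0.5 TPM, 28 once levels were rescaled with mitochondrial and the 50 highest genes removed, 25 with every row of the table counted and 19 without the 7 IDs that have near-identical copies. It was 11 at 5 TPM and 7 at 10 TPM. The IDs counted as having near-identical copies are those of Ccl21 and Ccl27, with Ccl19 and Ccl19-ps3. The median over all members, 0.627 TPM, was 1.09 TPM after that rescaling, which multiplies every level by 1.73 and leaves their order as it was. It was 0.659 TPM over rows, 1.07 TPM over members above 0 and 4.45 TPM over those at 1 TPM or more, as fewer low genes enter. As a mean of log2 values it was 1.95, 0.994 and 0.633 TPM with pseudocounts of 1, 0.1 and 0.01, and as a median of log2 values with 0.01 it was 0.626 TPM. The protein-coding share of 56.0% at 1 TPM was 59.8% at 0.5 TPM, 42.5% at 5 TPM and 31.9% at 10 TPM, and 34.1% over all gene IDs. Low values rest on an unknown number of reads. Of the 54 IDs, 27 overlap another annotated gene, 13 of them among the 24 at 1 TPM or more. No paired analysis was possible because a single library was used.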

Other observations

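Of 18 listed cytokine and chemokine genes outside the counted set, platelet chemokines included, 4 reached 1 TPM, against 56.0% of protein-coding genes. Their median was 0.0807 TPM. Mif, a cytokine that most cells store, stood at 548 TPM. The IL-6 family genes Ctf1 and Clcf1 stood at 11.1 and 5.35 TPM, above Lif at 2.48 TPM and Il6 at 1.48 TPM. The platelet chemokine gene Pf4 stood at 3.05 TPM, between Ppbp at 0.0196 TPM and Cxcl3, listed at 0, in its cluster. The keratinocyte cytokines of the IL-36 group were under 1 TPM, with Il36g at 0.420 TPM, while the gene of their antagonist, Il36rn, stood at 4.70 TPM. Il24, Il20 and Il17c stood between 0.0347 and 0.0424 TPM, and Il19 was listed at 0.

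The 7 genes of cytokine mRNA decay had a median of 29.3 TPM. None was below 1 TPM, a level that 56.0% of protein-coding genes reached. The decay factor genes Zfp36l2, Zfp36 and Zfp36l1 stood at 124, 115 and 98.1 TPM, and Zc3h12a, which encodes the nuclease Regnase-1, was lowest at 2.36 TPM.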
